A study of Mus musculus with 6 samples.

Results

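Spermatogonial stem cells and their first differentiating daughters were followed through 10 genes: the GDNF receptor genes Gfra1 and Ret, the ligand genes Gdnf and Kitl, the regulators Zbtb16, Lin28a, Etv5 and Id4 of undifferentiated spermatogonia, and Kit and Sohlh1 of differentiating spermatogonia. Every probe set whose platform symbol was exactly one of these names was taken, which gave 24 probe sets of the 45037 tested. RNA came from whole testis of mice aged 5 weeks, on 3 Affymetrix arrays of wild type and 3 of Phf13 knockout. The product of Phf13 binds methylated histone H3 through its PHD finger. The labels do not state the strain, the design of the knockout allele or whether the arrays of a genotype are separate animals. The p-values therefore cover the spread between these arrays alone, which may be technical. Values are log2 probe set values, and a difference is knockout minus wild type. The comparison asks whether loss of Phf13 goes with altered levels of stem cell and differentiation genes.

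The balance between self-renewal and differentiation in the seminiferous tubule is set by signals from somatic cells. Sertoli and peritubular cells secrete GDNF, which binds GFRA1 and signals through the receptor tyrosine kinase RET in undifferentiated spermatogonia, where it maintains genes such as Etv5 and Id4. Differentiating spermatogonia gain the receptor KIT, whose ligand KITL comes from Sertoli cells, and SOHLH1 is a helix-loop-helix factor that drives this step. Several of these genes are not restricted to spermatogonia: Etv5 is also made in Sertoli cells, and Kit in Leydig cells and mast cells and, as a shorter transcript, in spermatids. In whole tissue, fewer cells of a type and less RNA per cell cannot be told apart.

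The Phf13 probe set stood at 9.55, 9.47 and 9.56 in wild type and at 6.71, 6.60 and 6.55 in knockout, so the targeted gene went with the label on all 6 arrays. The place of its probes relative to the deletion is not in the sources used here. The tissue label matched the germ cell markers: Ddx4, Dazl and Mael averaged from 11.43 to 11.61 in wild type and from 11.57 to 11.62 in knockout. The 18S ribosomal RNA controls split the arrays into 2 sets that each mix the genotypes. Knockout 1 was with wild type 1 and 2 (first set, 18S means from 12.03 to 12.67), and wild type 3 was with knockout 2 and 3 (second set, from 9.69 to 10.71). The actin control was brighter at its 3' end by 0.75 to 0.89 in the first set and by 0.56 to 0.59 in the second. For several genes the difference within each set is also given.

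None of the 24 probe sets passed the test over all probe sets (limma adjusted p under 0.05 after Benjamini-Hochberg adjustment; smallest 0.163). At that threshold knockout exceeded wild type in 0.0555% of all probe sets and lay below it in 0.0444%. An unadjusted p under 0.05 was reached by 4 of the 24 as higher and by 5 as lower, where 6.81% and 8.31% of all probe sets were. The 4 belonged to Kitl, Gdnf and Zbtb16, and the 5 to Id4 and Lin28a. The groups of 3 arrays did not overlap for 7 probe sets that were higher and 4 that were lower; over the array these shares were 8.62% and 10.7%. With 1 probe set per gene, that of the highest mean, the 10 genes had a median difference of 0.10, beside 0.01 over all 18193 genes. With array weights, 5 probe sets of Lin28a, Id4 and Kitl passed (limma adjusted p from 0.0224 to 0.0465), in a fit that called 1654 probe sets of the whole array as higher and 1532 as lower. Probe sets of one gene read the same RNA on the same arrays and are not replicates. An exact permutation test of 3 against 3 arrays cannot go below p = 0.1, so none was used for single genes.

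**Figure D1:**
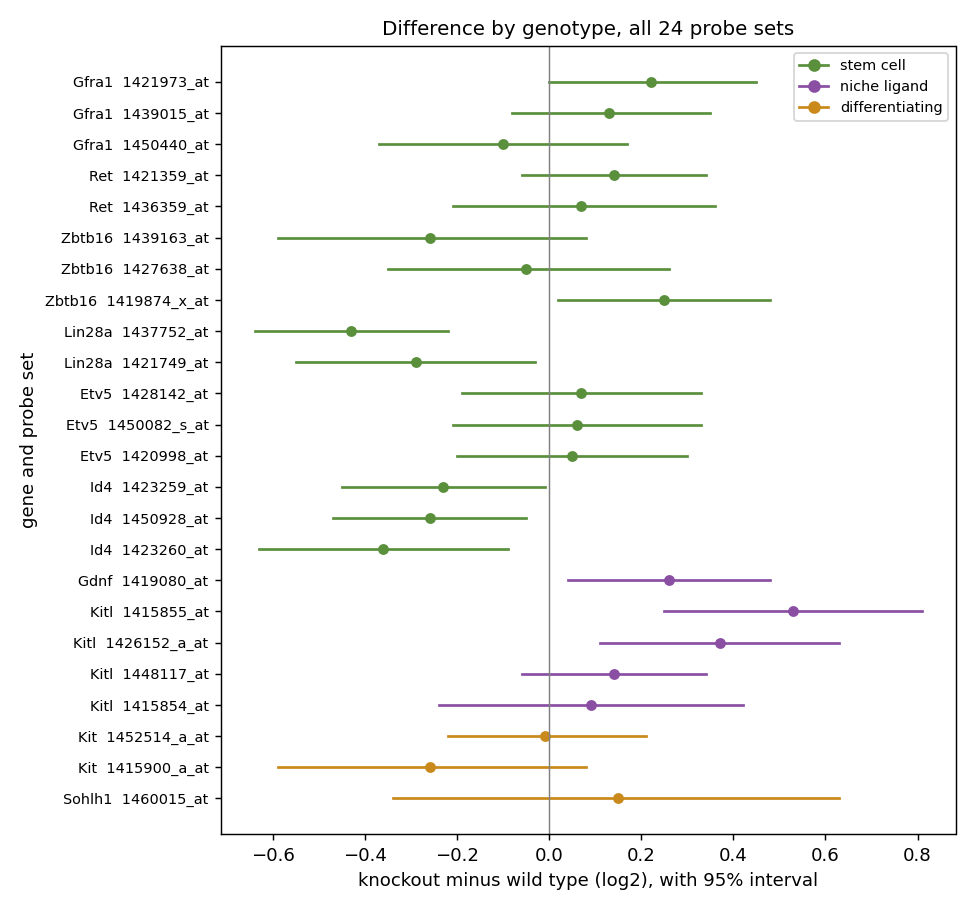
Difference of each of the 24 probe sets (rows) between knockout and wild type on the log2 scale (horizontal axis), as points with 95% limma intervals, coloured by role. The probe sets of Id4 and Lin28a lie below 0 and those of Gdnf and Kitl above 0, while Gfra1 and Zbtb16 have probe sets on both sides.

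Of the ligand genes Kitl and Gdnf, Kitl had the larger difference. KITL is the growth factor that Sertoli cells present to KIT-bearing spermatogonia. Its brightest probe set, 1415855_at, stood at 7.84, 8.10 and 8.06 in wild type and at 8.32, 8.66 and 8.61 in knockout. All 3 knockout arrays lay above all 3 wild-type arrays, with the lowest knockout value in knockout 1. The difference was 0.53 (SE 0.12, 95% interval 0.25 to 0.81), a 1.44-fold higher level, with a limma adjusted p = 0.185. It was 0.35 within the first set and 0.57 within the second, the order in which such pairs are given from here on. The next probe set, 1426152_a_at, read 6.60, 6.77 and 6.60 in wild type and 6.83, 7.05 and 7.19 in knockout. Its difference was 0.37 (95% interval 0.11 to 0.63; limma adjusted p = 0.237), with 0.15 and 0.52 within the sets, and the groups did not overlap. The remaining probe sets of Kitl differed by 0.14, with intervals from -0.06 to 0.34, and by 0.09, from -0.24 to 0.42. All 4 probe sets were thus above 0, but they did not agree in size.

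Gdnf, the ligand of GFRA1 and RET, had a single, dim probe set. It read 3.56, 3.43 and 3.47 in wild type and 3.65, 3.70 and 3.89 in knockout. The groups did not overlap, and the gap between the nearest arrays, wild type 1 and knockout 1, was narrow. The difference was 0.26 (SE 0.10, 95% interval 0.04 to 0.48; limma adjusted p = 0.280), with 0.15 and 0.32 within the sets. The mean lower quartile of the arrays was 3.69, so the Gdnf signal lay near or under it and its scale is uncertain.

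Markers of the somatic cells that make these ligands were measured beside them, by the brightest probe set of each gene as in all lists below. The means of the 13 Sertoli markers ran from 8.95 to 8.98 in wild type and from 9.26 to 9.41 in knockout. All 13 were above 0, with a median difference of 0.41, with 0.32 and 0.40 within the sets. At an unadjusted p under 0.05, 10 of the 13 were higher, where 8.58% of all genes were higher and 8.72% lower. In limma 0 passed over all probe sets. The list was chosen with earlier results of these data known, so the count is a description and not a test. Cst12, a cystatin of Sertoli cells, differed by 0.58, Inhbb, a subunit of inhibin B, by 0.41, and Fshr, the receptor for follicle-stimulating hormone, by 0.45. The 8 markers of peritubular myoid cells and stroma, a further source of GDNF, had a median of 0.32, with 0.19 and 0.52 within the sets, and list means from 7.51 to 7.67 in wild type and from 7.79 to 8.18 in knockout. The proteoglycan gene Dcn differed by 0.95, smooth muscle actin Acta2 by 0.49 and the receptor gene Pdgfra by 0.55. In all 7 were above 0 and 1 below, and 4 had an unadjusted p under 0.05; the contractile and filament genes Tagln, Myh11, Des and Cnn1 differed by 0.16, 0.11, 0.01 and -0.11. The part of these markers in the Kitl and Gdnf values was not tested.

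**Figure D2:**
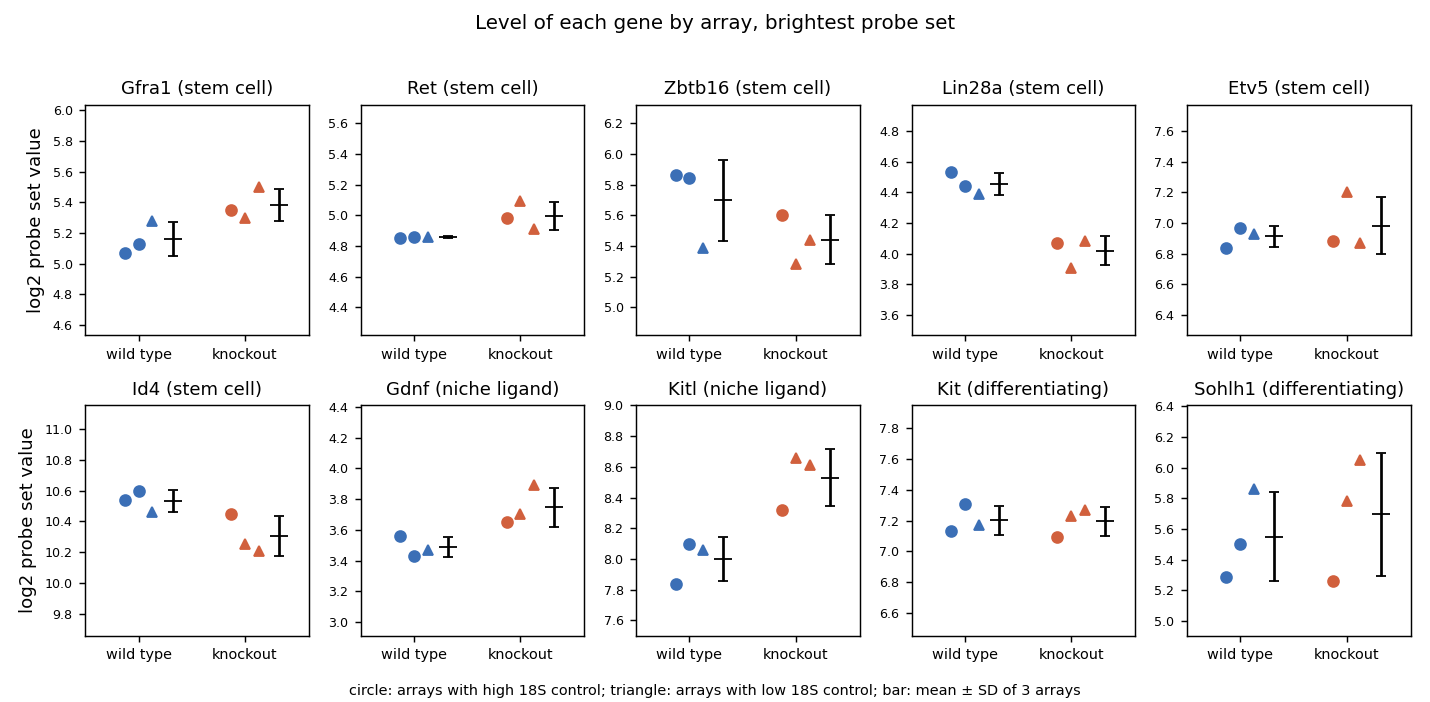
Log2 value of the brightest probe set of each of the 10 genes (vertical axis, spanning 1.5 log2 units in every panel) in wild type and knockout, with circles for arrays of the first 18S set, triangles for the second and bars for the mean ± SD of 3 arrays. Lin28a and Id4 are lower on all knockout arrays, and Kitl, Gdnf, Gfra1 and Ret are higher, the last by a small margin. Sohlh1 is higher in the second 18S set of both genotypes.

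Of the GDNF receptor genes, neither passed the test. GFRA1 is the anchored co-receptor that binds GDNF, and its gene marks the most primitive spermatogonia. The brightest Gfra1 probe set, 1421973_at, stood at 5.07, 5.13 and 5.28 in wild type and at 5.35, 5.30 and 5.50 in knockout. The groups did not overlap, though wild type 3 and knockout 2 were almost level. The difference was 0.22 (95% interval 0.00 to 0.45; limma adjusted p = 0.336). A second probe set differed by 0.13, by 0.29 within the first set and 0.00 within the second. The third, below the lower quartile, differed by -0.10 (95% interval -0.37 to 0.17). Ret, the signalling receptor, read 4.85, 4.86 and 4.86 in wild type and 4.98, 5.09 and 4.91 in knockout by its brighter probe set. All knockout arrays were higher by a small margin, with a difference of 0.14 (95% interval -0.06 to 0.34; limma adjusted p = 0.493). The dimmer Ret probe set differed by 0.07, with knockout 1 as the highest array and knockout 2 as the lowest.

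Id4 was lower in knockout at each of its 3 probe sets, without passing the adjusted threshold. ID4 is an inhibitor of helix-loop-helix factors, and its gene is a marker of the stem cell pool; in testis the gene is not restricted to those cells. Its brightest probe set, 1423259_at, read 10.54, 10.60 and 10.46 in wild type and 10.45, 10.25 and 10.21 in knockout. The groups were separated by only the step from wild type 3 to knockout 1. The difference was -0.23 (95% interval -0.45 to -0.01; limma adjusted p = 0.322), with -0.12 and -0.23 within the sets. The probe set 1450928_at stood at 8.52, 8.71 and 8.60 against 8.42, 8.29 and 8.33, a difference of -0.26 (95% interval -0.47 to -0.05; limma adjusted p = 0.261). The probe set 1423260_at stood at 8.60, 8.36 and 8.21 against 8.13, 8.01 and 7.94, a difference of -0.36 (95% interval -0.63 to -0.09; limma adjusted p = 0.245). Each of these also had groups that did not overlap. All 3 lay above the upper quartile of the arrays.

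**Figure D3:**
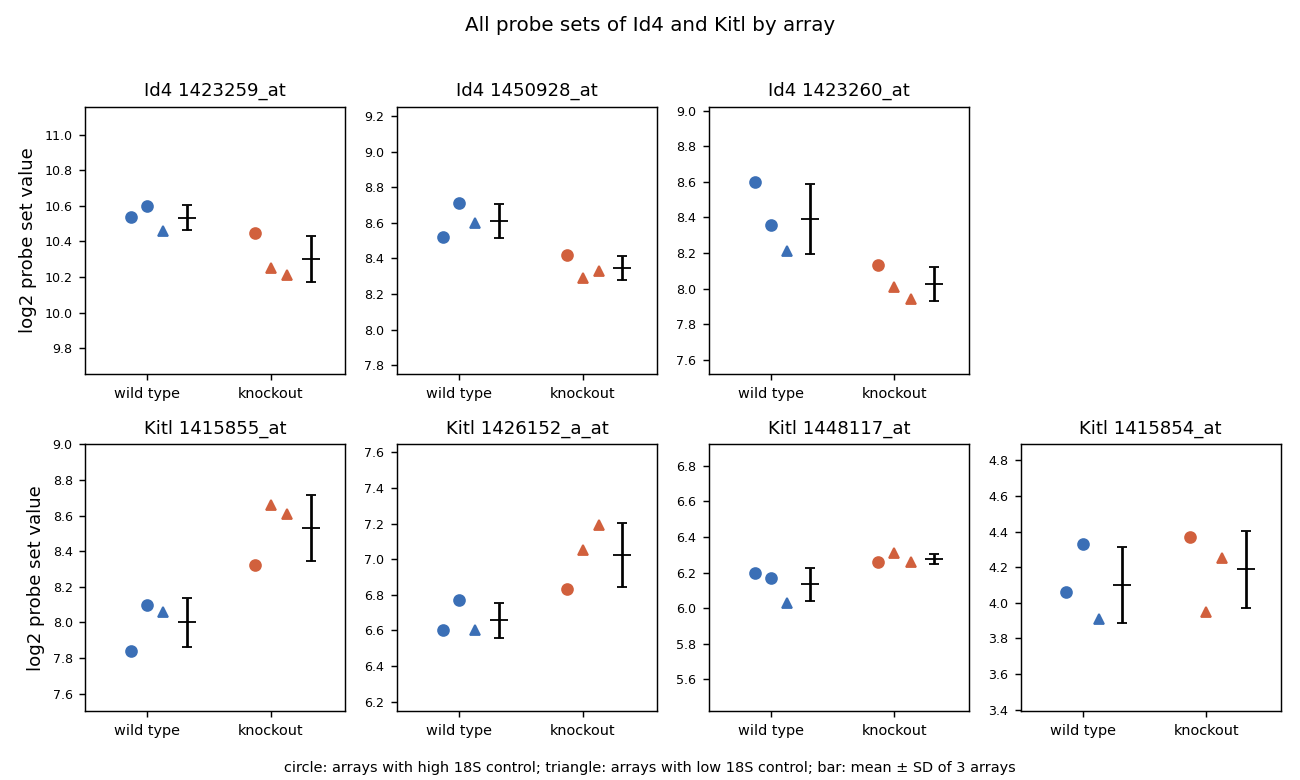
Log2 values (vertical axis, spanning 1.5 log2 units in every panel) of the 3 probe sets of Id4 and the 4 of Kitl in wild type and knockout, with circles and triangles for the first and second 18S sets and bars for the mean ± SD of 3 arrays. The Id4 groups do not overlap in any of the 3 panels, and the Kitl groups overlap only at 1415854_at.

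Lin28a had the smallest p of the 24. LIN28A is an RNA-binding protein that blocks maturation of let-7 microRNAs and is made in undifferentiated spermatogonia. Its brighter probe set, 1437752_at, read 4.53, 4.44 and 4.39 in wild type and 4.07, 3.91 and 4.08 in knockout. The 3 knockout arrays lay clearly below the wild-type arrays. The level was low, with means of 4.45 in wild type and 4.02 in knockout. The lower quartile of the arrays averaged 3.69 and their median 5.26. The difference was -0.43 (SE 0.09, 95% interval -0.64 to -0.22), a 1.35-fold lower level, with a limma adjusted p = 0.163. Within the sets it was -0.42 and -0.39. The other probe set, below the lower quartile, read 2.64, 2.35 and 2.43 against 2.11, 2.35 and 2.10, so that wild type 2 and knockout 2 were level; it differed by -0.29 (95% interval -0.55 to -0.03). Lin28a lies at chr4:134003330-134019196 and Phf13 at chr4:151989631-151996179 in GRCm38.p6 (RefSeq), on the same chromosome. Over the 6 arrays, each probe set centred on its own mean, the genes nearest to Lin28a among 12594 brighter than the median were Ston2, Letm1 and Rhpn1. Their root mean square differences from it were 0.0435, 0.0501 and 0.0540 on the log2 scale, and they differed by -0.40, -0.42 and -0.42. They were picked for this closeness, so differences near that of Lin28a follow from the choice and are no separate result.

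The probe sets of Zbtb16 disagreed in sign. ZBTB16, also called PLZF, is a zinc finger repressor needed to keep the stem cell pool. The brightest, 1439163_at, read 5.86, 5.84 and 5.39 in wild type and 5.60, 5.28 and 5.44 in knockout. Here wild type 3 fell among the knockout arrays. The difference was -0.26 (95% interval -0.59 to 0.08), with -0.25 and -0.03 within the sets. The probe set 1427638_at differed by -0.05, whereas 1419874_x_at differed by 0.25 (95% interval 0.02 to 0.48; limma adjusted p = 0.302), with groups that did not overlap. The suffix of the last marks a probe set whose probes may also hybridise to other transcripts.

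Etv5 showed the least difference among the stem cell genes. ETV5 is an ETS factor that responds to GDNF and FGF signals. Its brightest probe set read 6.84, 6.97 and 6.93 in wild type and 6.88, 7.20 and 6.87 in knockout, with only knockout 2 outside the wild-type range. The difference was 0.07 (95% interval -0.19 to 0.33; limma adjusted p = 0.806), and the other probe sets differed by 0.06 and 0.05. The intervals leave room for a change of up to about 0.33 in this gene.

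Kit and Sohlh1 had overlapping groups throughout. KIT is the receptor that marks entry into differentiation. Its brighter probe set, 1452514_a_at, stood at 7.13, 7.31 and 7.17 in wild type and at 7.09, 7.23 and 7.27 in knockout. The arrays of the genotypes were interleaved, with a difference of -0.01 (95% interval -0.22 to 0.21; limma adjusted p = 0.982). The other, 1415900_a_at, read 5.24, 4.94 and 4.92 against 5.05, 4.74 and 4.54, a difference of -0.26 (95% interval -0.59 to 0.08; limma adjusted p = 0.449). Which of them reads the shorter spermatid transcript was not stated.

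The Sohlh1 values were ordered by the sets of arrays and not by genotype. Its single probe set read 5.29, 5.50 and 5.86 in wild type and 5.26, 5.78 and 6.05 in knockout. The 3 arrays with low 18S signal were the highest, whichever their genotype. The difference was 0.15 (SE 0.21, 95% interval -0.34 to 0.63; limma adjusted p = 0.784), with -0.13 and 0.05 within the sets. This interval was the widest of the 24.

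The 6 stem cell genes had a median difference of -0.08, with 3 above 0 and 3 below. Kit and Sohlh1 had a median of 0.07, with 1 above 0 and 1 below. The median of all genes was 0.01. With an array left out, the first median ran from -0.11 to -0.03 and the second from -0.04 to 0.21, the last without knockout 1. With runs of consecutive codes in the titles as a block they were -0.05 and -0.06, and with the 18S sets as a block -0.05 and -0.03. Inside the first 18S set they were -0.07 and -0.13, and inside the second 0.04 and 0.07. With the mean of all probe sets of a gene they were 0.02 and 0.01. The difference between the groups was not tested. Inside the stem cell group, by the brightest probe set of each gene, Gfra1, Ret and Etv5 lay above 0 and Lin28a, Id4 and Zbtb16 below. No test was made of a list chosen with earlier results known.

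ID4 acts on factors that bind the E-box, and SOHLH1 is a factor of that kind. Whether ID4 acts on SOHLH1 or its gene was not tested here. The promoters of Id4 and Sohlh1 are shown as the 250 bases before the RefSeq start site, 5′ to 3′ on the strand of the gene. Id4 is at chr13:48260866-48261115 (plus strand) and Sohlh1 at chr2:25847249-25847498 (minus strand) in GRCm38.p6. Capitals mark the motif that each window held most often. These are GC boxes (GGGCGG on either strand) in Id4 and E-boxes (CANNTG, which reads the same on both strands) in Sohlh1. The GC boxes of Sohlh1 are not marked.
Id4: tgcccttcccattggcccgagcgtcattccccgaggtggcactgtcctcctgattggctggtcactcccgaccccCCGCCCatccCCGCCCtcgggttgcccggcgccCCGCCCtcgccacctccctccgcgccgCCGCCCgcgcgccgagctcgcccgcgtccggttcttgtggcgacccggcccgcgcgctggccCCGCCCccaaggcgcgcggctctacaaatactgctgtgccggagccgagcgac
Sohlh1: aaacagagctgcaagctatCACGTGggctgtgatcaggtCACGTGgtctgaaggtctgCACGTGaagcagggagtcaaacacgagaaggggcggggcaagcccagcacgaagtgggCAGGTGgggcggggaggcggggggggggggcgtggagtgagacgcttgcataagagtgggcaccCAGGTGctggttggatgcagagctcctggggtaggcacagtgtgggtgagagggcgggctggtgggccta
The Id4 window held 5 GC boxes and 0 E-boxes, and the Sohlh1 window 5 E-boxes, 3 of them CACGTG, and 3 GC boxes. Of 32851 such windows over the genome, 32.7% held a GC box, 66.2% an E-box and 6.02% CACGTG. At least 5 GC boxes were found in 1.93% and at least 5 E-boxes in 1.15%. At least 3 GC boxes were found in 8.47% and at least 3 CACGTG in 0.0609%. Windows were matched for 8 of the 10 genes. That of Kitl held 3 GC boxes and 0 E-boxes, and that of Lin28a 0 of either. The Gfra1 window held 3 E-boxes, where 12.2% of all windows held at least 3, and 1 window of Etv5 held 3 GC boxes. The Lin28a window, chr4:134018817-134019066, lies within the gene span given above, and the Kitl window overlaps its gene. Each thus precedes a start site inside the gene. A match describes the letters of the window and shows neither binding nor a cause of the values above.

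Other genes of the same pathways gave no adjusted call either. Counts in the lists use the brightest probe set of each gene and are read against all genes, of which 8.58% (higher) and 8.72% (lower) had an unadjusted p under 0.05. In the GDNF family list of 9 ligands and receptors, 3 of them described above, 1 was higher and 2 were lower at an unadjusted p under 0.05, with a median difference of 0.14. The neurturin gene Nrtn read 7.57, 7.17 and 7.47 in wild type and 6.82, 6.98 and 7.02 in knockout, a difference of -0.46 (limma adjusted p = 0.208). Gfra4, the co-receptor of persephin, differed by -0.34 (limma adjusted p = 0.276), from 7.93 ± 0.17 to 7.59 ± 0.17 (SD, n = 3 each). By the brightest probe set of each, these genes lay below 0 where Gdnf, Gfra1 and Ret lay above. Of 12 measured genes that respond to GDNF, 3 were higher and 1, Id4, was lower at that p, with a median of 0.11. The chemokine receptor gene Cxcr4 differed by 0.36 and the tetraspanin gene Tspan8 by 0.34.

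The list of 24 measured genes of undifferentiated spermatogonia had a median difference of 0.01, with 13 above 0 and 10 below. By the brightest probe set of each gene, 2 had an unadjusted p under 0.05, Lin28a and Id4, both lower. The 16 genes of KIT signalling and differentiating spermatogonia had a median of 0.08, and 2 were higher at that p: Kitl, and the X-linked homeobox gene Rhox13, which differed by 0.33. Neither list stood far from the median of all genes.

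The list of 17 niche ligands had a median of 0.15, where 5 of the 17 had an unadjusted p under 0.05 as higher and 0 as lower; in limma 0 passed over all probe sets. Besides Kitl and Gdnf, Bmp4 read 4.66, 4.87 and 4.63 in wild type and 5.04, 5.28 and 5.22 in knockout, a difference of 0.46 (limma adjusted p = 0.186), with 0.27 and 0.62 within the sets. Igf1, a growth factor gene of Leydig and other somatic cells, differed by 0.83 (limma adjusted p = 0.214), by 0.14 and 1.33 within the sets. Of 25 measured genes that relay signals of RET and KIT, 3 were higher and 3 lower at that p, near the shares of all genes, with a median of 0.06. The Src family kinase gene Fyn differed by 0.42, Nras by -0.29 and the phospholipase gene Plcg1 by -0.27.

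**Figure D4:**
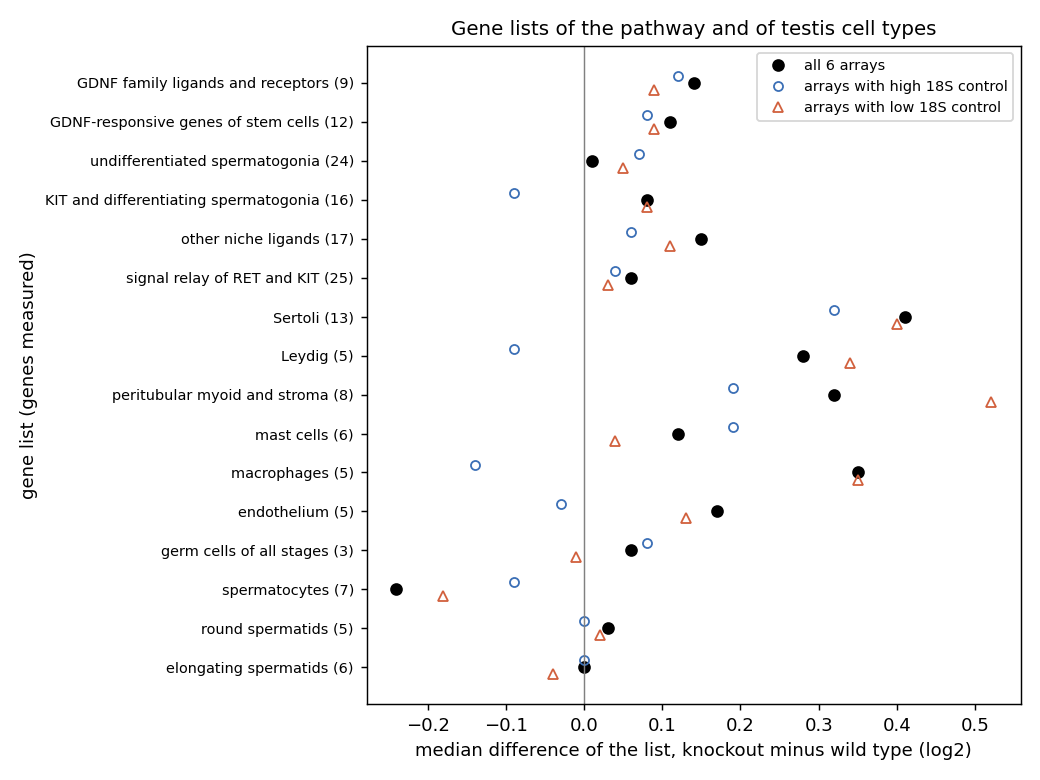
Median difference between knockout and wild type on the log2 scale (horizontal axis) of each gene list (rows, with the number of genes measured), over all 6 arrays and inside each 18S set. The Sertoli median of 0.41 lies furthest to the right, followed by macrophages at 0.35, peritubular myoid and stroma at 0.32 and Leydig at 0.28. Inside the first 18S set the macrophage and Leydig medians are -0.14 and -0.09. The spermatocyte median of -0.24 lies to the left, and the lists of spermatogonia lie between 0.01 and 0.08.

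Other cells that make these genes were measured by their markers. Mast cells bear KIT, and their 6 markers had a median of 0.12 (means from 4.49 to 4.69 in wild type and from 4.72 to 4.80 in knockout). The mast cell protease gene Cpa3 differed by 0.56 (limma adjusted p = 0.125). Hdc, Mcpt4, Tpsb2, Cma1 and Fcer1a differed by 0.24, 0.12, 0.12, 0.06 and 0.01, each with overlapping groups. Kit itself differed by -0.01 at its brighter probe set and by -0.26 at 1415900_a_at. The 5 measured Leydig markers had a median of 0.28, with -0.09 and 0.34 within the sets, with list means from 8.80 to 9.12 in wild type and from 9.00 to 9.50 in knockout. Hsd3b1 differed by 0.56 and Star by 0.49. Cyp11a1, Cyp17a1 and Hsd17b3 differed by 0.28, 0.20 and 0.02, with overlapping groups, and by -0.19, -0.09 and -0.36 within the first set. For germ cells, the markers of all stages had a median of 0.06, the 7 spermatocyte markers -0.24 (list means from 11.16 to 11.24 in wild type and from 11.02 to 11.09 in knockout), and the round and elongating spermatid lists 0.03 and 0.00. The spermatocyte median was -0.09 and -0.18 within the sets. In that list Spo11, Ccna1 and Piwil1 differed by -0.29, -0.28 and -0.26, and Hspa2 by -0.24, while Sycp3, Sycp1 and Ldhc differed by 0.12, 0.01 and -0.02. The part of these cells in the Id4, Lin28a and Kit values was not tested.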

How the data were processed

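The authors deposited log2 probe set values. The submitters' processing notes name Affymetrix Expression Console 1.4.1; how it summarized and normalized the probes was not stated, and the scale was taken from the range of the values. Of 45101 probe sets, 64 were controls and the other 45037 were tested, dim ones included. In the platform annotation 34945 probe sets had 1 symbol, 932 several and 9160 none, and only the first kind was named. Genotype was fitted with lmFit and eBayes of limma 3.58.1 in R 4.3.3, two-sided, with Benjamini-Hochberg adjustment over all probe sets and a threshold of 0.05. Precision is limited by the 3 arrays per genotype. The fit was tested on simulated data.

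Alternatives were blocks (replicate number, runs of consecutive codes in the titles, 18S sets), median centring, quantile normalization, robust moderation with an intensity trend, probe sets above the median level, array weights and each array left out. The members and lists were chosen with earlier results of these data known. All members were described with all their probe sets; from each of 16 lists at most 3 genes with the smallest p were named, as were the 3 genes nearest in pattern to the member with the smallest p. Ddx4, Dazl and Mael are the whole of their list. Tagln, Myh11, Des, Cnn1, Hspa2, Sycp3, Sycp1, Ldhc, Tpsb2, Cma1, Fcer1a, Cyp17a1 and Hsd17b3 complete what is said of theirs. These were named after their values were seen. Promoters came from the RefSeq table of GRCm38.p6.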

Additional observations from a re-analysis of the deposited data

How the results depend on the processing

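Of 324 differences of the 24 probe sets under 14 refits, 304 did not reverse and missed the threshold, 5 passed it and 15, of 8 probe sets, changed sign. A difference that rounded to 0.00 was counted as not reversed. All 5 passed with array weights, where 1654 probe sets were higher and 1532 lower: Lin28a 1437752_at at -0.48, Id4 1450928_at at -0.33 and 1423260_at at -0.39, and Kitl 1415855_at at 0.59 and 1426152_a_at at 0.37. All probe sets of Id4, Lin28a, Gdnf and Gfra1 kept their sign in each of the 14 refits that tested them (inside the first 18S set alone, Gfra1 1450440_at was 0.07), as did those of Kitl except 1415854_at, which was -0.11 with array weights. The other sign changes were in values near 0, except for Sohlh1, which differed by 0.15 in the main fit. Sohlh1 was -0.07 with title code runs and -0.04 with the 18S sets as a block, and ran from -0.03 (without knockout 3) to 0.37 with an array left out. Zbtb16 1427638_at was 0.02 with the 18S sets as a block and ran from -0.19 to 0.05 (without knockout 3). Kit 1452514_a_at was 0.01 after quantile normalization and ran from -0.04 to 0.05 (without wild type 2 or knockout 1). Ret 1436359_at was -0.04 with array weights and ran from -0.03 (without knockout 1) to 0.20. Etv5 1420998_at was -0.02 with array weights and ran from -0.05 (without knockout 1) to 0.11; 1428142_at and 1450082_s_at ran from -0.04, both without knockout 2, to 0.13 and 0.14.

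Over the whole array, 25 probe sets were higher and 20 lower. With the replicate number as a block, 6 were lower, and no member passed. The labels do not say that replicate numbers pair the samples, so the main fit had no block. The deviations of same-numbered arrays correlated at 0.26, 0.07 and 0.12. Those of other pairs ran from -0.20 to 0.13, the highest for wild type 3 with knockout 2. These correlations do not decide whether the numbers pair the samples. With title code runs as a block 12 were higher and 4 lower, with probe sets above the median level 42 were lower, and with an intensity trend 66 were higher and 44 lower. With an array left out, from 8 to 178 were higher and from 4 to 998 lower, both highest without wild type 3; without knockout 1, 140 were higher, and without any one of the other 4 arrays from 8 to 12 were higher and from 4 to 8 lower. The cause was not tested. The median of the stem cell genes was 0.02 with the mean of all probe sets of a gene and 0.04 inside the second 18S set. Dim probe sets, such as those of Gdnf and the fainter ones of Lin28a and Ret, lie where signal over background limits what can be read.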
